A study of Homo sapiens with 6 samples.

Results

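The genes described here code for the nuclear-encoded subunits of mitochondrial respiratory chain complexes I to IV, together with the assembly factors of complex I whose symbols share its stem. They are the rows of the deposited gene table whose symbol starts with NDUF or UQCR, is SDHA, SDHB, SDHC or SDHD, is CYC1, or has the stem COX with a number from 4 to 8, an optional letter A to C and an optional number. This gave 75 of the 17579 genes in the table, and 70 of them had enough reads to be tested among 13138 genes in all. By function they were 37 subunits of complex I, 8 complex I assembly factors (NDUFAF1 to NDUFAF8), the 4 subunits of complex II, 10 genes of complex III and 14 genes of complex IV, plus NDUFA4L2 and the readthrough gene NDUFC2-KCTD14. NDUFA4 was counted with complex IV, where its protein is now placed despite its name, and NDUFA4L2, its relative, was kept apart. The symbol pattern leaves out COX4I1 and COX7A2L, which are given with the neighbouring pathway genes.

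Complex I oxidises NADH and complex II oxidises succinate, and both hand electrons to ubiquinone in the inner mitochondrial membrane. Complex III passes them on to cytochrome c and complex IV to oxygen, and complexes I, III and IV pump protons that drive ATP synthase. Most subunits are nuclear genes whose proteins are imported, while the catalytic core of complex IV, cytochrome b and the proton-pumping core of complex I are made from mitochondrial DNA, whose genes were not analysed here. Plasma cells and the myelomas derived from them secrete large amounts of immunoglobulin, an ATP-consuming activity.

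The RNA came from LP-1 cells, an established line of human multiple myeloma that is labelled as a B lymphoblast and carries the t(4;14) translocation. The AURKA guide group (LP1_sgAURKA, 3 libraries) had been infected with virus carrying an sgRNA against AURKA, which codes for the mitotic kinase Aurora A. The control group (LP1_Vector, 3 libraries) had been infected with virus carrying a non-targeting sgRNA. All 6 libraries came from cells kept with 10% FBS, and the sources used here do not give the time after infection. The labels do not say whether replicates were separate cultures or whether the cells were a pool or a clone, so the p-values below reflect the spread of these 6 samples alone, part or all of which may be technical. The comparison asks which transcripts differ once AURKA has been targeted.

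Total expected counts lay between 17724174 and 18523594 per library, so that 1 CPM (a read count scaled to the size of its library) is about 18 reads. AURKA (gene ID 6790) itself was at 113, 119 and 113 CPM in AURKA-guide libraries 1, 2 and 3, against 189, 192 and 195 CPM in control libraries 1, 2 and 3, a log2 fold change of -0.74 (SE 0.0488, edgeR adjusted p = 1.55e-06). RNA that is left after a guide-directed break does not measure the protein. All 7 plasma cell markers passed the filter, with a summed level of 3415 to 3454 CPM in AURKA-guide libraries and 3491 to 3595 CPM in control libraries. Summed markers of T and NK, myeloid, erythroid, stromal and epithelial cells reached at most 5.94 CPM in any library. In bulk RNA, fewer cells of a kind and less RNA per cell cannot be told apart.

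No respiratory chain gene passed the test in either direction. Among the 70 tested members, 0 were higher and 0 lower in AURKA-guide cells at an adjusted p under 0.05 (edgeR quasi-likelihood test, adjusted over all 13138 genes). Over all tested genes the test called 2.03%, of which 0.959% were higher and 1.07% lower. DESeq2 and limma on log2 FPKM also called 0 members. At an unadjusted p under 0.05, 12 members were lower and 1 was higher, where 8.58% of all tested genes were lower and 7.54% higher. In 12 members all 3 AURKA-guide libraries lay below all 3 control libraries and in 0 members above them, against 10.2% of all tested genes below and 10.5% above.

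The differences were small and most lay slightly below 0. The fitted log2 fold change was negative in 52 of 70 members (74.3%), against 6573 of all 13138 tested genes, and its median was -0.042 in members and -9.4e-05 in all tested genes. For 65 of the 70 members the whole 95% interval lay within a 1.25-fold change in either direction (0.32 on the log2 scale), a width reached by 8231 of the 13138 tested genes. The 5 others were NDUFS7 and NDUFS8, whose intervals reached -0.37 and -0.42, and the scarce transcripts COX6B2, UQCRHL and NDUFA4L2, at 0.708, 2.71 and 0.859 CPM. Members were well covered, with a median of 116 CPM against 27.9 CPM over all tested genes. Their median coefficient of variation between replicates was 4.17% in AURKA-guide libraries and 6.23% in control libraries. The plot of fold changes by complex shows how closely the members lie around 0.

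**Figure D1:**
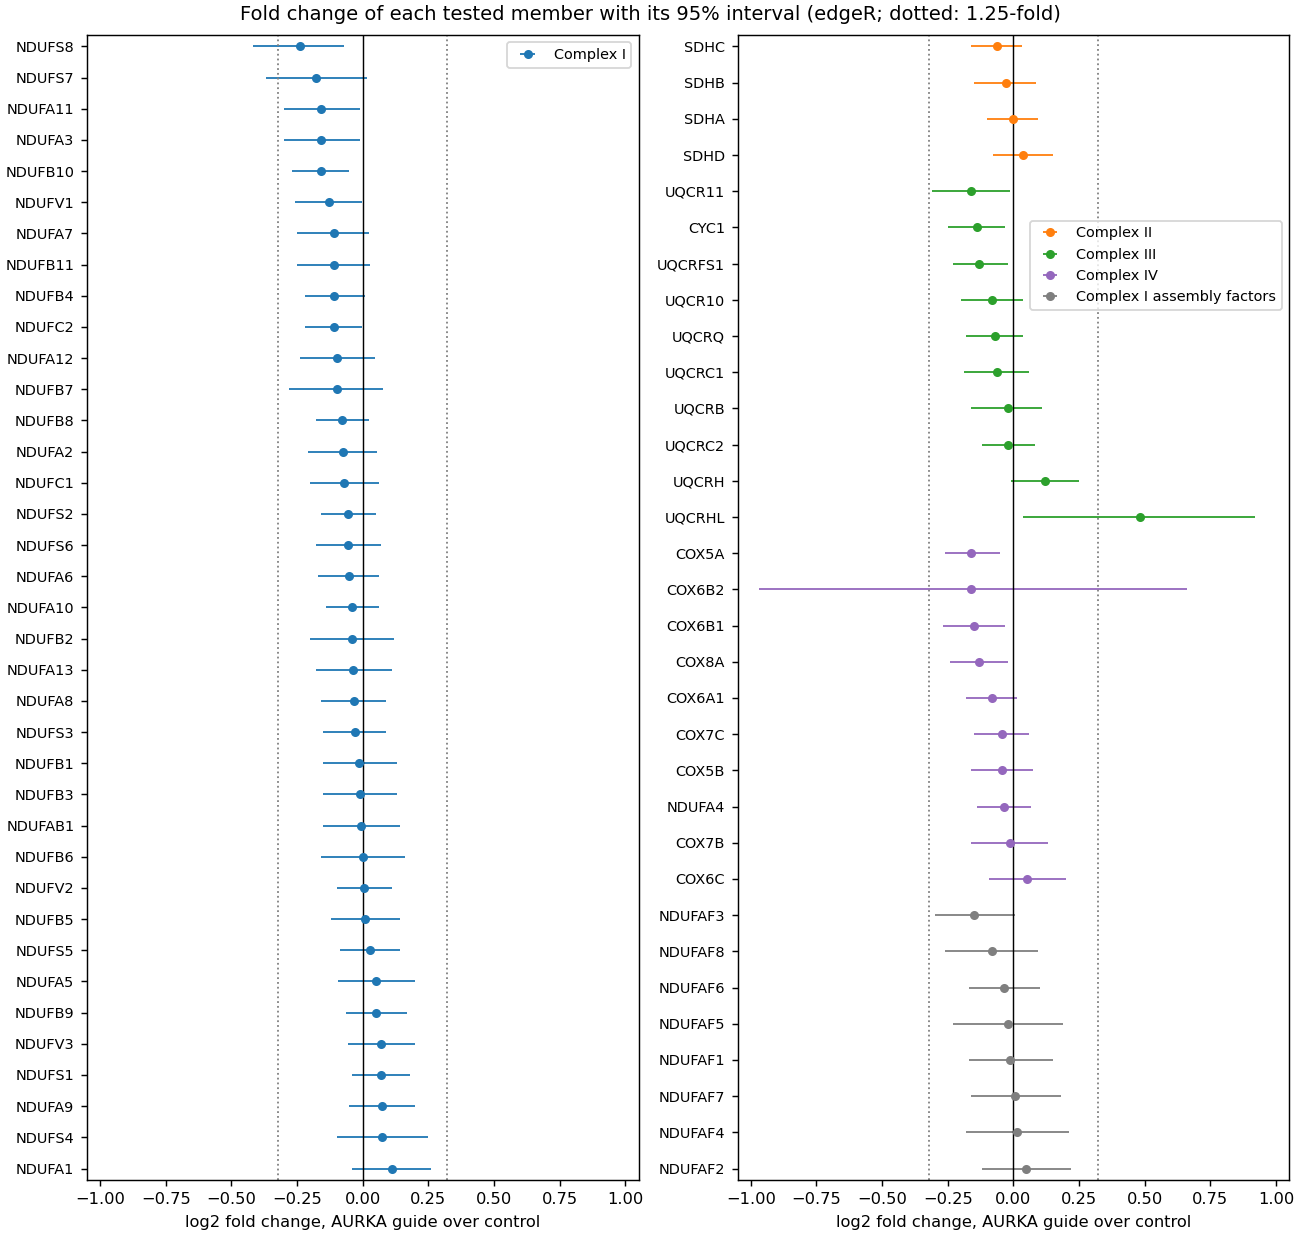
Fitted log2 fold change (horizontal axis, AURKA guide over control) with its 95% interval for 69 tested members, one per row, coloured by complex, with complex I on the left and the other sets on the right; NDUFA4L2 is not drawn. Solid lines mark 0 and dotted lines a 1.25-fold change, and the intervals that pass a dotted line are those of NDUFS8, NDUFS7, UQCRHL and COX6B2.

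Summed over its genes, each complex was between 1.51% and 4.91% lower in AURKA-guide libraries, and only the complex IV sums did not overlap between the groups. Complex I summed to 4633, 4762 and 4469 CPM in AURKA-guide libraries, against 4708, 4963 and 4690 CPM in control libraries. Complex II stood at 780, 808 and 794 CPM in AURKA-guide libraries, against 805, 796 and 816 CPM in control libraries. For complex III the sums were 2066, 2114 and 2034 CPM in AURKA-guide libraries, against 2102, 2175 and 2184 CPM in control libraries. Those 3 complexes overlapped between the groups. Complex IV summed to 1999, 2077 and 1966 CPM in AURKA-guide libraries, against 2078, 2159 and 2118 CPM in control libraries, so its groups were separated by about 1 CPM. The 8 complex I assembly factors summed to 287, 293 and 267 CPM in AURKA-guide libraries, against 286, 305 and 292 CPM in control libraries. Median log2 fold changes were -0.041 for complex I, -0.016 for complex II, -0.068 for complex III, -0.064 for complex IV and -0.016 for the assembly factors, and the last turned to 0.035 without control library 3. No test was made of the differences between complexes.

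**Figure D2:**
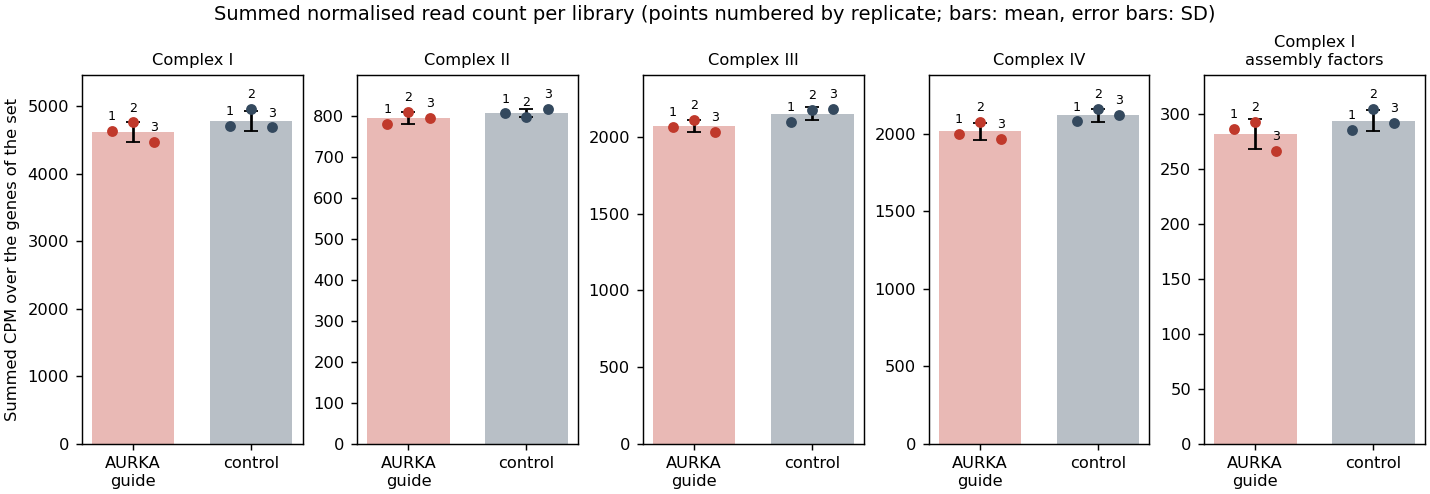
Summed CPM per library (vertical axes, each starting at 0) for the genes of each complex, with points numbered by replicate, bars at the mean and error bars of 1 SD (n = 3), AURKA guide left and control right in each panel. The complex I means are 4621 and 4787 CPM, and the complex IV means 2014 and 2118 CPM, for AURKA guide and control.

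The promoters of 5 members are printed here, since promoters of this family are known for sites of the factor NRF1, which activates many nuclear genes of the respiratory chain. The windows run from 250 bases before to 50 after the annotated start site (300 bases, RefSeq, GRCh38.p14, written in the direction of transcription), and capitals mark matches to CGCANGCGC, a core of the NRF1 motif, on either strand. NDUFB4 (complex I, chr3:120596086-120596385, plus strand) and SDHA (complex II, chr5:218070-218369, plus strand) each hold 4 matches, the most among the members with a window. In NDUFB4 the first capital run is 2 overlapping matches on opposite strands, while the matches in SDHA lie apart. UQCRFS1 (complex III, chr19:29213102-29213401, minus strand) and COX6A1 (complex IV, chr12:120437863-120438162, plus strand) hold 1 match each, which begins 31 and 219 bases before the start site. COX5A (complex IV, chr15:74938024-74938323, minus strand), the member with the smallest adjusted p, holds none in this window.
NDUFB4: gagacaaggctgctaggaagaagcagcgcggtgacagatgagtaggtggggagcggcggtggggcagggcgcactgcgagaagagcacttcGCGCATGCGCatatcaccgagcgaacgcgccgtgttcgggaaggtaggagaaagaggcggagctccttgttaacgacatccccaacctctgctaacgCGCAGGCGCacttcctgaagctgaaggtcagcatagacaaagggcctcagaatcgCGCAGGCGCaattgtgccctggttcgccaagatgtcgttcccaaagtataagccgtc
SDHA: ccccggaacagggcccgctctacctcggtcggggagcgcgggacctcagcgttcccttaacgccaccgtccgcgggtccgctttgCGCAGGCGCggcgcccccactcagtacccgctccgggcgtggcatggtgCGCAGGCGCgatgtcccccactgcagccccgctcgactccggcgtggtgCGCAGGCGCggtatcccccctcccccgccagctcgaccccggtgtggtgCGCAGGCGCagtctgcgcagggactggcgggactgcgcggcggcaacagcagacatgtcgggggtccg
UQCRFS1: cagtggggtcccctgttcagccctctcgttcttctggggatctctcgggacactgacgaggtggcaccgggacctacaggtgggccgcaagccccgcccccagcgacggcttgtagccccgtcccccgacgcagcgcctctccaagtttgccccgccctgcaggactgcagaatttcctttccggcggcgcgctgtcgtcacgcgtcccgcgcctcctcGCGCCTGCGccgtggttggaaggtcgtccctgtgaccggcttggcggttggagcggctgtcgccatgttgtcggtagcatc
COX6A1: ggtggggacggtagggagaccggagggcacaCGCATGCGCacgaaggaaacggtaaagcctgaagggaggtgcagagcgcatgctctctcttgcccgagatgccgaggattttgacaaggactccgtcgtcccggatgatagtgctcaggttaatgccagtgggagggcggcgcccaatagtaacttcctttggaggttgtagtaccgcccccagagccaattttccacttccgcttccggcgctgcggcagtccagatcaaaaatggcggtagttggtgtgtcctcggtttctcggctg
COX5A: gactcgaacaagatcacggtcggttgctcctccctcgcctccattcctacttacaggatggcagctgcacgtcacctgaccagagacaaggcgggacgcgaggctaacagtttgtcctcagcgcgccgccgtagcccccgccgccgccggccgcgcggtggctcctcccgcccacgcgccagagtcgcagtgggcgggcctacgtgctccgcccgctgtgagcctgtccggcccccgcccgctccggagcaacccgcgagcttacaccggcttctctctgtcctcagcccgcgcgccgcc

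Promoter windows were found for 63 of the 75 members. The NRF1 letters stood in 18 of them (28.6%), against 14.8% of the windows of tested genes and 8.05% of all windows. By complex they stood in 9 of 32 windows for complex I, 2 of 3 for complex II, 4 of 7 for complex III and 2 of 12 for complex IV. A core of the ETS motif that GABP binds, CCGGAAG, stood in 15 windows (23.8%), against 19.4% for tested genes and 10.7% for all. A core of the YY1 motif, AAGATGGCG, stood in 7 (11.1%), against 3.95% and 1.85%. A match is a description of letters, not a site shown to be bound. The median log2 fold change was -0.081 in the 17 tested members that hold the NRF1 letters and -0.039 in the 42 that do not. With the ETS letters it was -0.037 (15 members) and without them -0.055 (44 members). With the YY1 letters it was -0.054 (7 members) and without them -0.044 (52 members). All these medians are of values without correction for transcript GC content. The log2 fold change of the members went with GC content (Pearson correlation -0.54, described below). Whether members with and without the letters differ, apart from GC content, was not tested.

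Among the 7 core subunits of the complex I peripheral arm, which carry the flavin and iron-sulfur clusters, 5 had values below 0 and none passed. NDUFS8 (gene ID 4728), an iron-sulfur subunit near the ubiquinone site, was at 121, 113 and 103 CPM in AURKA-guide libraries, against 133, 150 and 116 CPM in control libraries. Control library 3 lay below AURKA-guide library 1, so the groups overlapped. Its log2 fold change of -0.24 (SE 0.0819, adjusted p = 0.160) was the largest in size within complex I. The fit with the replicate number as a block called it (adjusted p = 0.0318), as did the comparison without control library 3 (adjusted p = 0.00188). NDUFS7, which carries the last cluster before ubiquinone, was at 135, 124 and 110 CPM in AURKA-guide libraries, against 132, 163 and 124 CPM in control libraries (log2 -0.18, adjusted p = 0.347). NDUFV1, which binds NADH and the flavin, was at 344, 329 and 313 CPM in AURKA-guide libraries, against 358, 394 and 330 CPM in control libraries (log2 -0.13, adjusted p = 0.299). In all 3 genes the highest value was that of control library 2. NDUFV2, its partner in the NADH module, was at 704, 771 and 707 CPM in AURKA-guide libraries, against 710, 708 and 754 CPM in control libraries, with an interval from -0.10 to 0.11. NDUFS1, the largest core subunit, was at 133, 139 and 138 CPM in AURKA-guide libraries, against 131, 123 and 135 CPM in control libraries (log2 0.070, adjusted p = 0.530).

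The 9 accessory subunits of the peripheral arm lay between -0.11 and 0.075 on the log2 scale. Of these, 5 were below 0, and all 9 had intervals within 1.25-fold. NDUFA7 had 77.0, 75.2 and 72.7 CPM in AURKA-guide libraries, against 80.7, 88.1 and 74.3 CPM in control libraries (log2 -0.11, adjusted p = 0.411). NDUFA12 had 46.4, 51.8 and 50.7 CPM in AURKA-guide libraries, against 49.0, 54.6 and 56.0 CPM in control libraries (log2 -0.10, adjusted p = 0.489). For NDUFA2 the values were 78.5, 80.6 and 74.3 CPM in AURKA-guide libraries, against 82.3, 87.3 and 76.5 CPM in control libraries (log2 -0.076, adjusted p = 0.563). The groups overlapped in each of these genes. NDUFAB1, the acyl carrier protein found in both arms, had a log2 fold change of -0.0065 (interval -0.15 to 0.14).

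The 20 accessory subunits of the membrane arm ran from -0.16 to 0.11, with 15 below 0. NDUFB10 (gene ID 4716), which faces the intermembrane space, was at 163, 167 and 163 CPM in AURKA-guide libraries, against 179, 196 and 177 CPM in control libraries. Every AURKA-guide library lay below every control library, and the log2 fold change was -0.16 (SE 0.0514, interval -0.27 to -0.052, adjusted p = 0.141). NDUFB8, NDUFC1 and NDUFC2 also had groups that did not overlap, with log2 fold changes of -0.079, -0.070 and -0.11 and adjusted p-values of 0.444, 0.609 and 0.295. NDUFA11, which sits at the junction of the arm with complex III in supercomplexes, had 104, 104 and 97.5 CPM in AURKA-guide libraries, against 113, 125 and 102 CPM in control libraries (log2 -0.16, adjusted p = 0.276). NDUFA3 had 91.3, 82.7 and 78.8 CPM in AURKA-guide libraries, against 90.9, 103 and 88.3 CPM in control libraries (log2 -0.16, adjusted p = 0.278). NDUFB4, whose promoter is printed above, was at 110, 104 and 99.9 CPM in AURKA-guide libraries, against 112, 116 and 110 CPM in control libraries (log2 -0.11, adjusted p = 0.342). All 3 of these overlapped between the groups.

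The assembly factors, which help build complex I without staying in it, lay between -0.15 and 0.047. NDUFAF3, needed for an early module next to ubiquinone, had 93.4, 87.6 and 80.3 CPM in AURKA-guide libraries, against 94.0, 107 and 88.9 CPM in control libraries (log2 -0.15, adjusted p = 0.326). NDUFAF8 had 42.0, 42.3 and 40.1 CPM in AURKA-guide libraries, against 40.9, 50.6 and 40.2 CPM in control libraries (log2 -0.081, adjusted p = 0.658). NDUFAF2, a factor for the late NADH module, had 23.8, 26.5 and 23.8 CPM in AURKA-guide libraries, against 23.6, 22.1 and 26.0 CPM in control libraries (log2 0.047, adjusted p = 0.810). All 8 had overlapping groups and intervals within 1.25-fold.

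Complex II, which is also the succinate dehydrogenase of the citric acid cycle, had log2 fold changes between -0.064 and 0.038. SDHA, the flavoprotein that oxidises succinate, was at 232, 226 and 225 CPM in AURKA-guide libraries, against 229, 226 and 229 CPM in control libraries (log2 -0.0021, interval -0.10 to 0.094). SDHB, the iron-sulfur subunit, was at 122, 138 and 124 CPM in AURKA-guide libraries, against 131, 129 and 132 CPM in control libraries (log2 -0.030, interval -0.15 to 0.087). The membrane anchors differed in sign, neither past the threshold. SDHC had 279, 286 and 292 CPM in AURKA-guide libraries, against 293, 300 and 303 CPM in control libraries, groups that did not overlap (log2 -0.064, adjusted p = 0.502). SDHD had 146, 158 and 152 CPM in AURKA-guide libraries, against 152, 141 and 152 CPM in control libraries (log2 0.038, adjusted p = 0.762).

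In complex III, 8 of 10 genes were below 0. CYC1 (gene ID 1537), the haem subunit that reduces cytochrome c, was at 398, 380 and 378 CPM in AURKA-guide libraries, against 424, 452 and 399 CPM in control libraries. Its groups were separated by about 1 CPM (log2 -0.14, SE 0.0517, adjusted p = 0.199). UQCRFS1 (gene ID 7386), the Rieske iron-sulfur subunit, was at 142, 146 and 137 CPM in AURKA-guide libraries, against 151, 159 and 154 CPM in control libraries (log2 -0.13, SE 0.0495, adjusted p = 0.221). UQCRQ was the third gene without overlap (log2 -0.072, adjusted p = 0.506). UQCR11, a small subunit, was at 110, 109 and 101 CPM in AURKA-guide libraries, against 115, 133 and 109 CPM in control libraries, which overlapped (log2 -0.16, adjusted p = 0.266). UQCRH, the hinge protein that helps dock cytochrome c, was at 191, 193 and 190 CPM in AURKA-guide libraries, against 173, 162 and 194 CPM in control libraries (log2 0.12, adjusted p = 0.343). Control library 3 stood above all AURKA-guide libraries there. UQCRHL, a close copy of UQCRH, had 2.84, 3.60 and 3.04 CPM in AURKA-guide libraries, against 2.22, 1.66 and 2.90 CPM in control libraries (log2 0.48, adjusted p = 0.271), and reads may be divided wrongly between the copies. The core proteins UQCRC1 and UQCRC2 had log2 fold changes of -0.063 and -0.020 and intervals within 1.25-fold.

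In complex IV, 9 of the 10 tested genes were below 0. COX5A (gene ID 9377), a matrix-side subunit, was at 230, 242 and 224 CPM in AURKA-guide libraries, against 251, 265 and 260 CPM in control libraries. All AURKA-guide libraries lay below all control libraries, a difference of 10.3% (log2 -0.16, SE 0.0486, interval -0.26 to -0.052), and its adjusted p of 0.132 (edgeR) was the smallest among members. COX6B1, on the intermembrane side near the cytochrome c site, was at 237, 234 and 231 CPM in AURKA-guide libraries, against 259, 279 and 241 CPM in control libraries (log2 -0.15, SE 0.0547, adjusted p = 0.199). COX8A, a small membrane subunit, was at 313, 328 and 312 CPM in AURKA-guide libraries, against 345, 368 and 330 CPM in control libraries (log2 -0.13, SE 0.0504, adjusted p = 0.224). Neither gene overlapped between the groups. COX6A1 was the fourth gene without overlap, at 249, 246 and 236 CPM in AURKA-guide libraries, against 258, 263 and 253 CPM in control libraries (log2 -0.083, adjusted p = 0.392). The 5 other well-expressed subunits were COX5B, COX6C, COX7B, COX7C and NDUFA4, whose log2 fold changes ran from -0.045 to 0.053 with overlapping groups. NDUFA4L2, known as a hypoxia-induced gene, had 0.547, 0.818 and 0.759 CPM in AURKA-guide libraries, against 1.46, 1.09 and 0.483 CPM in control libraries, with an interval from -1.29 to 0.28.

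Levels between genes were compared by FPKM, which divides counts by gene length and library size. Complex IV transcripts were the most abundant per length, with a median over tested genes of 381 FPKM, against 121 for complex I, 105 for complex II, 125 for complex III and 18.5 for the assembly factors. COX8A led complex IV at 664 ± 16.4 FPKM in AURKA-guide libraries and 723 ± 33.0 FPKM in control libraries (SD, n = 3 each). COX7C came next at 490 ± 17.7 FPKM in AURKA-guide libraries and 503 ± 9.97 FPKM in control libraries (SD, n = 3 each), and the ranges of the pair over the 6 libraries did not overlap. NDUFA4, at 125 FPKM over all libraries, was the lowest of the 9 complex IV genes above 100 FPKM and did not overlap the next, COX7B, at 282. Within complex I, NDUFV2 led at 806 ± 41.8 FPKM in AURKA-guide libraries and 801 ± 33.5 FPKM in control libraries (SD, n = 3 each). NDUFB9 followed at 377 ± 9.14 FPKM in AURKA-guide libraries and 362 ± 20.9 FPKM in control libraries (SD, n = 3 each). NDUFV3 and NDUFA5 were the lowest, at 28.2 and 28.6 FPKM over all libraries, and their ranges overlapped. Of the 36 pairs of neighbours in the order of complex I, 30 had overlapping ranges. The 4 subunits of complex II lay within 77.2 (SDHA) to 114 (SDHB) FPKM, with SDHA below the other 3 without overlap. CYC1 (328 FPKM) and UQCRH (304 FPKM) led complex III with overlapping ranges, and UQCRQ (54.9) and UQCRHL (5.33) were the lowest.

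**Figure D3:**
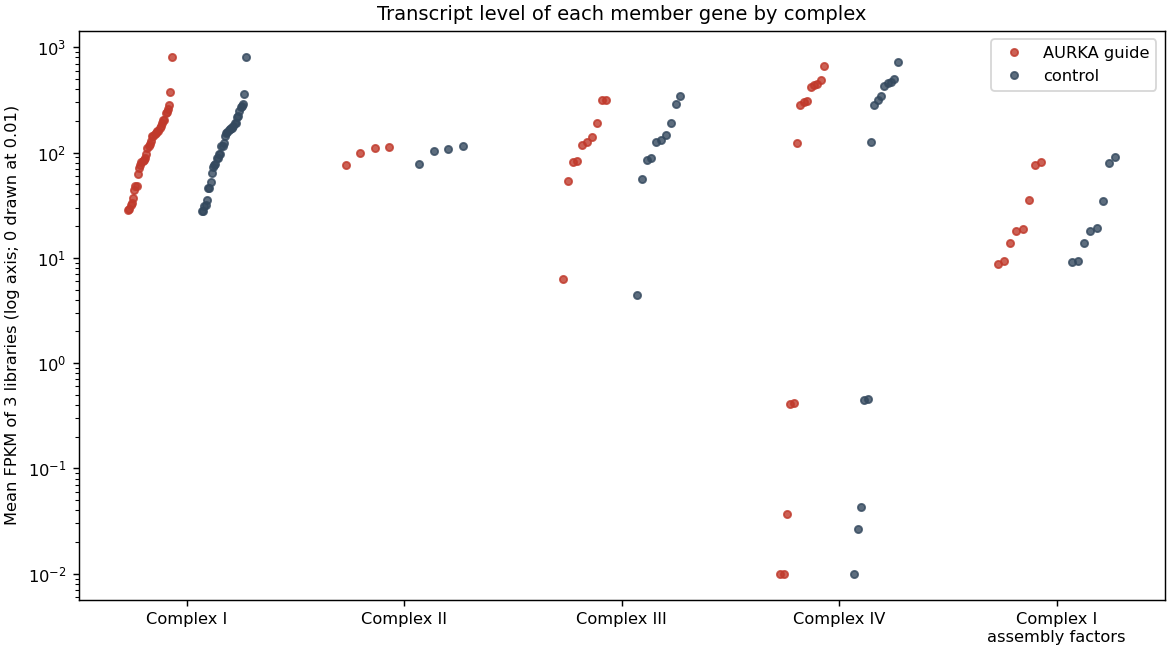
Mean FPKM of 3 libraries (vertical log axis; means of 0 drawn at 0.01) for 73 genes by complex, AURKA guide left and control right within each complex, points spread sideways in rising order. Subunits of complex IV form a high cluster and a low one of 5 genes under 1 FPKM, and NDUFV2 stands above the other complex I genes at 804 FPKM over all libraries.

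Of the 14 complex IV genes, 5 were under 1 FPKM. COX6A2 and COX7A1, isoforms of heart and skeletal muscle, and COX8C, known from testis, had at most 1 read in any library and did not pass the filter. COX6B2, the testis isoform of COX6B1, reached 0.407 ± 0.132 FPKM in AURKA-guide libraries and 0.447 ± 0.206 FPKM in control libraries (SD, n = 3 each). COX7A2, the form of subunit VIIa found in most tissues, had 14, 6 and 5 expected counts in AURKA-guide libraries, against 12, 9 and 6 in control libraries, and did not pass the filter. The readthrough gene NDUFC2-KCTD14 had at most 9.27 expected counts and did not pass either. Respiratory chain genes have many pseudogene copies, and the sources used here do not say how reads that fit several copies were shared, so low values of such genes are uncertain.

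The size of the difference went with the base composition of the transcripts. Over the 70 tested members, the log2 fold change and transcript GC content had a Pearson correlation of -0.54 and a Spearman correlation of -0.64, given as a description across genes that share the same 6 libraries. Of the 31 members above the GC content median of all tested genes (48.5%), 29 were below 0, with a median of -0.10. In the 39 others the median was -0.012, with 23 below 0. The control libraries differed among themselves in the same respect: the log2 ratio of control library 2 over control library 3 had a Pearson correlation of 0.72 with GC content over these genes. The correlation of the fold change with GC content was -0.30 without control library 2 and -0.61 without control library 3.

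After each library was corrected for its trend with transcript GC content, the median of the members was -0.051, and the correlation with GC content was -0.07. The correction is built to bring that correlation towards 0, so its fall is not a separate result. With that correction, 3.02% of all tested genes were called lower, and 4 members were: COX5A (log2 -0.17, edgeR adjusted p = 0.00521), UQCRFS1 (log2 -0.16, adjusted p = 0.0172), NDUFC2 (log2 -0.14, adjusted p = 0.0428) and SDHC (log2 -0.11, adjusted p = 0.0466). They belong to complexes IV, III, I and II, and all 4 had groups that did not overlap in the uncorrected values. The corrected NDUFS8 value was -0.14 (adjusted p = 0.0564). With 1 library left out of the corrected comparison, COX5A was called without each of 5 libraries and not without AURKA-guide library 3, where 0 members were called. In that last fit, 199 of 13278 tested genes were called lower, against 397 of 13138 with all 6 libraries. Without control library 3, 3.37% of all tested genes were called lower. Without any other single library that share was under 3.02%, so fewer calls were made among all genes too. UQCRFS1 was not called without AURKA-guide library 3 or control library 2, NDUFC2 was called only without AURKA-guide library 2 or control library 3, and SDHC only without control library 3. NDUFB4, not called with all 6 libraries, was called without AURKA-guide library 1 (log2 -0.21, adjusted p = 0.0367) and without control library 3 (log2 -0.21, adjusted p = 0.0137).

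**Figure D4:**
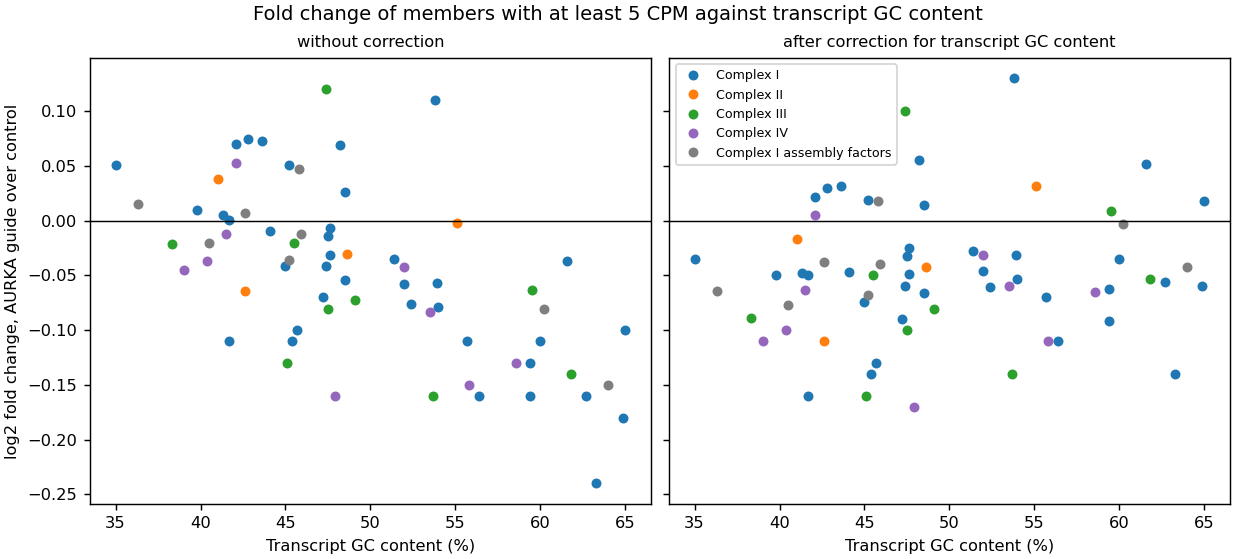
Fitted log2 fold change (vertical axis, AURKA guide over control) against transcript GC content in percent (horizontal axis) for the 67 tested members with a mean of at least 5 CPM, coloured by complex, without correction (left) and after correction for GC content (right). The downward slope on the left (Pearson correlation -0.54 over all 70 tested members) is near 0 on the right (-0.07), while most points stay below 0. The correction is built to remove such a slope.

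Without the correction, the number of members called moved when control library 3 was left out. In that comparison, 13 members were called lower and 3 higher, where 8.50% of all tested genes were called lower and 6.81% higher. NDUFS8 (log2 -0.34, adjusted p = 0.00188), COX6B1 (log2 -0.20, adjusted p = 0.00548) and CYC1 (log2 -0.19, adjusted p = 0.00779) were among the 13. The 3 higher were UQCRH (log2 0.19, adjusted p = 0.00799), UQCRHL (log2 0.70, adjusted p = 0.0381) and COX6C (adjusted p = 0.0450). Without any other single library, 0 members were called in either direction. Of the genes named here, NDUFS8, COX6B1 and UQCRH were also called with GC correction and without control library 3. CYC1, UQCRHL and COX6C were not called in that comparison. With GC correction and all 6 libraries, CYC1 was at -0.053 (edgeR adjusted p = 0.291).

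Transcripts of the members were tested in the same way, and 0 of 165 were called among 43979 tested, where 1 transcript was called in all. That is 0.00227% of all tested transcripts. At an unadjusted p under 0.05 there were 11 member transcripts, against 3.85% of all tested transcripts. The DESeq2 Wald test called 3, from NDUFB10, COX5A and NDUFC1, against 2.04% of all transcripts with an adjusted p. NDUFC1, a small membrane-arm subunit, had a nearly level gene total of 32.3, 33.7 and 33.7 CPM in AURKA-guide libraries, against 33.8, 35.7 and 35.1 CPM in control libraries. Its transcript NM_001184990.1 was at 0 CPM in all 3 AURKA-guide libraries, against 9.88, 23.3 and 26.1 CPM in control libraries (edgeR adjusted p = 0.427). Its transcript NM_001184987.1 was at 27.2, 25.6 and 25.8 CPM in AURKA-guide libraries, against 16.7, 5.28 and 0.164 CPM in control libraries (adjusted p = 1). The split between these isoforms thus varied widely among the control libraries, while AURKA-guide libraries were alike. In the authors' deposited table of transcripts, NM_001184990.1 has a q-value of 6.33e-14 and a log2 fold change of -10.93 for the AURKA guide, a fitted value with 1 group at 0 that is not a bound. No other of the 207 member transcripts with a q-value there was under 0.05, against 1.55% of all transcripts. The authors' deposited table of genes lists 229 genes for this comparison, of which 0 are members. The expression data hold 17579 genes, so absence from so short a list says little about the 75 members.

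Of the neighbouring pathway genes, in lists chosen beside the members, 92 were tested and 0 were called by edgeR or DESeq2; at an unadjusted p under 0.05 (edgeR), 11 were lower and 2 higher, against 8.58% and 7.54% of all tested genes. After GC correction, 1 of the 92 was called lower and 1 higher, against 3.02% and 2.98% of all tested genes. These were COA3 (log2 -0.18, edgeR adjusted p = 0.0358) and POLRMT, the mitochondrial RNA polymerase (log2 0.12, adjusted p = 0.0484). Without control library 3, 9 were called lower and 3 higher, against 8.50% and 6.81% of all tested genes. The lists held the 2 subunits that the symbol pattern leaves out, 9 further complex I assembly genes, 9 assembly genes of complexes II and III, 24 of complex IV, 18 ATP synthase genes, 16 genes of electron carriers and electron entry, and 14 regulators. COX4I1, the ubiquitous subunit IV, had a log2 fold change of -0.028 (adjusted p = 0.827) and COX7A2L, a supercomplex factor, one of 0.085 (adjusted p = 0.477). ATP synthase genes were below 0 in 15 of 18 cases (median -0.066), led by ATP5F1D of the central stalk (log2 -0.24, adjusted p = 0.120, and 0.000234 without control library 3). After GC correction with all 6 libraries, ATP5F1D was at -0.082 (edgeR adjusted p = 0.211). Carrier and entry genes were below 0 in 14 of 16 cases (median -0.054), among them COQ4 of ubiquinone synthesis (log2 -0.23, adjusted p = 0.0948, and 0.0107 without control library 3), while GPD2, the mitochondrial glycerol phosphate dehydrogenase, was at 0.24 (adjusted p = 0.134, and 0.00655 without control library 3). After GC correction with all 6 libraries, COQ4 was at -0.14 (edgeR adjusted p = 0.116) and GPD2 at 0.18 (adjusted p = 0.0577). Complex IV assembly genes were below 0 in 18 of 24 cases (median -0.026), with COA3 at -0.21 (adjusted p = 0.146). The 9 further complex I assembly genes were below 0 in 4 cases (median 0.0013), and those of complexes II and III in 6 of 9 (median -0.058). The regulators were below 0 in 6 of 14 cases (median 0.015), with NRF1 at -0.0030 (adjusted p = 0.990) and GABPA at 0.13 (adjusted p = 0.484). TFAM, the mitochondrial DNA packaging factor, was at 0.18 (adjusted p = 0.232, and 0.00345 without control library 3). ESRRA was at -0.11 (adjusted p = 0.460, and 0.00604 without control library 3). The coactivator PPARGC1A was at -0.32 (adjusted p = 0.224), with means of only 4.89 CPM in AURKA-guide libraries and 6.10 CPM in control libraries. After GC correction with all 6 libraries, TFAM was at 0.11 (edgeR adjusted p = 0.164), ESRRA at -0.011 (adjusted p = 0.916) and PPARGC1A at -0.38 (adjusted p = 0.0874).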

How the data were processed

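RNA-seq libraries were made from 3 AURKA-guide and 3 control samples with the BGISEQ500 protocol, per the labels. The tools BWA, Bowtie2 and RSEM and the build hg19 are named in the submitters' processing notes; the sources used here give no versions, strandedness or handling of reads that fit several places. Values deposited by the authors are expected counts per gene and transcript, which need not be whole (44.8% of gene values were not), and FPKM. In the authors' deposited comparisons, log2 fold changes and q-values come from DESeq2, per the file headers.

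Expected counts were rounded for edgeR 4.0.16 in R 4.3.3 (filterByExpr, TMM, quasi-likelihood F test, Benjamini-Hochberg adjustment over all tested genes at 0.05), after a check on simulated data. Intervals cover 95% and come from edgeR's standard errors. Correction for GC content used as an offset a natural spline with 5 degrees of freedom, fitted per library to its deviation from the average library, with GC content of the longest coding transcript in GENCODE release 29, found for 12812 of the tested genes and all 70 tested members. Promoter windows are from RefSeq (GRCh38.p14), and no other coordinates are given because the authors' build differs. Alternatives were DESeq2 1.42.0, limma 3.58.1 on log2(FPKM + 1) or log2(FPKM + 0.1) with and without a minimum of 0.5 FPKM in 3 libraries, other scalings and count filters, the replicate number as a block, GC and length corrections, each library left out, and subunits only. The corrected comparison with each library left out was added after seeing the data. Without molecular identifiers, reads are not independent molecules. Replicates differed by more than counting noise, with a chi-square per gene of 2.24 to 10.5 over genes with at least 20 reads, the highest between control libraries 2 and 3.

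Members and lists were chosen with earlier results of these data known. The named genes are, per role, the 3 members of smallest p with at least 5 CPM; per complex, the 2 highest and 2 lowest by FPKM; members that did not pass the filter; and the 2 smallest p of each pathway list. Others are named for values seen first.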

Additional observations from a re-analysis of the deposited data

Results flagged for a closer look

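The authors' deposited table of transcripts also holds a comparison of an NSD2 guide with control, whose libraries were not analysed here. There, 3 of the 206 member transcripts with a q-value were under 0.05, against 1.78% of all transcripts with a q-value for that guide. The share among members was thus no higher than the share over all transcripts. The 3 transcripts lie outside the comparison described above. In the authors' deposited table, COX7C (NM_001867.2), a small complex IV subunit, had a log2 fold change of 0.22 with the NSD2 guide (q = 0.00444), beside -0.048 with the AURKA guide. COX6C (NM_004374.3), another small complex IV subunit, had 0.47 with the NSD2 guide (q = 0.0162) in the authors' deposited table, beside 0.15 with the AURKA guide. UQCRH (NM_006004.3), the hinge protein of complex III, had 0.29 with the NSD2 guide (q = 0.0350) in the authors' deposited table, beside 0.12 with the AURKA guide. Both comparisons use the same control libraries, and whether the guides differ was not tested.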

How the results depend on the processing

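The count of members called was 0 in both directions with the DESeq2 test, other scalings, other count filters and limma on FPKM. The count over subunits only was bound to be 0, since they are a subset of the members and the adjustment was unchanged. Correction for GC content gave 4 members lower and 789 genes called of all (3.02% lower), against 267 (1.07% lower) without it. Correction for GC content and length gave 7 members lower and 890 genes called of all (3.41% lower). Samples that share a replicate number did not deviate together (correlations 0.0514, -0.105 and 0.0951, against -0.206 to 0.166 for samples of unlike number). With 3 libraries per group, these values cannot show whether the numbers pair the samples. The edgeR fit with the replicate block called 1 member lower (NDUFS8, adjusted p = 0.0318) and 385 of all genes (1.58% lower). The replicate block with GC correction called 9 members lower and 881 of all genes (3.43% lower). With 1 library left out, 0 to 13 members were lower, 0 to 3 higher, and 98 to 2034 of all genes were called. The highest counts came without control library 3 (8.50% of all genes lower, 6.81% higher). Medians then ran from -0.073 to -0.026 for members, -0.079 to -0.025 for complex I, -0.030 to -0.0014 for complex II, -0.10 to -0.045 for complex III and -0.10 to -0.035 for complex IV. The assembly factor median ran from -0.063 to 0.035, above 0 without AURKA-guide library 1 or control library 3. With 1 library left out after GC correction, 0 to 11 members were lower and 0 to 1 higher, both highest without control library 3, where 3.37% of all genes were lower and 3.12% higher. Limma on log2(FPKM + 1) without a filter called 67 genes in all. The complex IV median was -0.10 with no filter on counts and -0.039 with limma without a filter. For transcripts of members, the DESeq2 Wald test called 3. The causes were not tested.

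After GC correction, 11 of the 70 members had the opposite sign, none of them called. Among them, UQCRC1 was at 0.0092, NDUFA5 was at -0.035, NDUFV2 at -0.048, SDHA at 0.032 and SDHD at -0.017. With length as well, UQCRC1 was at 0.022, NDUFA5 was at -0.037, NDUFV2 at -0.033 and SDHA at 0.038, and with the replicate block and GC correction NDUFA5 was at -0.035, NDUFV2 at -0.049, SDHA at 0.032 and SDHD at -0.018. SDHA was at 0.0031 with library size alone. With 1 library left out, NDUFV2 ran from -0.038 to 0.033, SDHA from -0.018 to 0.0055, SDHB from -0.086 to 0.00066, NDUFAF2 from -0.0061 to 0.11, COX6B2 from -0.46 to 0.21, NDUFAF8 from -0.14 to 0.034 and NDUFB9 from -0.0039 to 0.082. Depth limits COX6B2, UQCRHL and NDUFA4L2, while the other tested members have at least 10 CPM in every library.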

Other observations

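COX7A2 was nearly absent from the tables although the other subunits of complex IV found in most tissues were abundant. Its annotated transcript NM_001865.3 was listed at 0 in all 6 libraries, and its few reads stood under the predicted transcript XM_024446330.1, at 0.772, 0.330 and 0.273 CPM in AURKA-guide libraries, against 0.655, 0.517 and 0.328 CPM in control libraries. The lowest other complex IV subunit above 100 FPKM, NDUFA4, was at 125 FPKM. The sources used here do not say how the counting treated this gene, so its low value is uncertain.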
